A study of Caenorhabditis elegans with 12 samples.

Results

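The 8 genes described here code for the conserved machinery that builds centrioles and centrosomes in Caenorhabditis elegans. They were chosen by name, with earlier results of these data known. They are spd-2, zyg-1, sas-5, sas-6 and sas-4, which act in centriole assembly, and spd-5, air-1 and tbg-1, which act in the pericentriolar material. They are 8 of the 46903 genes of the count table, and all 8 were among the 8718 genes kept by a filter on low counts. RNA was sequenced from 12 single oocytes of untreated adult wild-type worms, 4 each at positions -5, -3 and -1. Position numbers start next to the spermatheca, where the oldest oocyte, -1, waits to be ovulated, and -5 is the youngest sampled. The labels name no strain, age in days or animal for any oocyte, and all 3 groups share the genotype, stage and lack of treatment.

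A centriole is a small cylinder of microtubules that organises a centrosome around itself. In the C. elegans embryo SPD-2 brings the kinase ZYG-1 to the centriole, ZYG-1 recruits SAS-5 and SAS-6 to form the central tube of the daughter, and SAS-4 is needed to add its microtubule wall. SPD-5 then forms the scaffold of the pericentriolar material, with SPD-2 and the kinases AIR-1 and PLK-1, and gamma-tubulin, made from tbg-1, nucleates microtubules there. The oocyte loses its centrioles during oogenesis and assembles its meiotic spindles without centrosomes. The sperm brings the centrioles back at fertilisation, while the egg supplies proteins and transcripts with which the embryo builds its centrosomes. RNA levels of the machinery in oocytes that have no centrioles are therefore levels of maternal transcripts, and the files hold no measurement of the proteins.

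The libraries held 8358019 to 20446599 counts and 8289 to 10054 detected genes each. All 10 oocyte markers, among them the yolk receptor gene rme-2 and the oocyte maturation genes oma-1 and oma-2, were detected in every library, and their summed level ranged between 20477 and 30554 CPM in the -5 oocytes, 8605 and 24700 CPM in the -3 oocytes and 13142 and 20766 CPM in the -1 oocytes. CPM is the count scaled to a common library size after TMM scaling, which allows for differences in library composition and had factors from 0.798 to 1.17. Of 9 sperm markers, 1 to 3 were detected in a library, and their summed level was at most 7.61 CPM. The sperm genes spe-11, gsp-4 and peel-1 were at 0 in every library. Markers of the gonadal sheath and spermatheca together took between 196 and 912 CPM in the -5 oocytes, between 116 and 198 CPM in the -3 oocytes and between 147 and 267 CPM in the -1 oocytes. Body muscle markers took between 296 and 831, 181 and 1079, and 831 and 1020 CPM in the oocytes of -5, -3 and -1, those of hypodermis at most 510 CPM and those of intestine at most 232 CPM in any oocyte. The muscle sum was mostly 1 gene, unc-54, with 167 to 1069 CPM and a median of 732 CPM. The next highest median, that of mlc-3, was 15.4 CPM, and that of myo-3 was 0.06 CPM. The sheath sum was mostly fln-1, with 113 to 218 CPM, and inx-8 reached 673 CPM in oocyte -5 replicate 4. The part of RNA from other cells in the results was not tested. Replicates 1 and 3 of oocyte -3 stood apart from the other 10 libraries in earlier results of these data and had 8814 and 8289 genes detected, so ratios that involve position -3 were also taken without both of them.

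Each library was 1 cell and no animals are named, so a position counts as 1 sample and no test between positions was made. For each position a pooled level was formed by adding the counts of the 4 oocytes and dividing by the sum of their TMM-scaled library sizes, with an exact Poisson interval at 95% that covers counting error only. CPM gives a gene's share of the RNA in a library, and the amount of RNA per oocyte was not measured. In the text below a gene is called apart between positions when its pooled levels differ by at least 1.5-fold. Oocytes are said not to overlap when all 4 values at a position lie above, or all below, the 4 values at the other. With oocytes left out fewer values are compared, and smaller groups fail to overlap more easily. The share of all genes that do not overlap was taken only with 4 oocytes a position. Ratios are log2 ratios of pooled levels, older position over younger.

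Transcripts of all 8 genes were present at levels far above the counting floor in every oocyte. A count of 3 equals 0.147 to 0.359 CPM, depending on the depth of the library, and the lowest value of any of the 8 genes in any oocyte was 9.33 CPM, for tbg-1 in oocyte -5 replicate 2. Pooled over the 12 oocytes and divided by exonic length, air-1 was the most abundant at 422 CPM per kilobase, above 96.4% of the 8718 genes. Then came sas-5 at 239 CPM per kilobase (above 92.7%), spd-2 at 95.2 (above 81.2%), spd-5 at 73.9 (above 76.2%), sas-6 at 67.4 (above 74.4%) and zyg-1 at 48.3 (above 67.5%). The lowest were tbg-1 at 17.3 CPM per kilobase (above 45.5%) and sas-4 at 15.4 (above 43.5%). The order per kilobase therefore placed a kinase and a central tube gene at the top, and the nucleator gamma-tubulin and the wall factor at the bottom.

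Most neighbours in that order were not separated by the spread over oocytes. Only zyg-1, whose lowest oocyte had 27.97 CPM per kilobase, and tbg-1, whose highest had 27.69, did not overlap over the 12 oocytes. Within single oocytes sas-5 stood above spd-2 in 12 of 12 and zyg-1 above tbg-1 in 12 of 12. In contrast tbg-1 stood above sas-4 in 6 of 12 oocytes and spd-2 above spd-5 in 7 of 12, so these pairs have no fixed order. By position, tbg-1 stood at 10.03 CPM per kilobase at -5, 26.2 at -3 and 14.4 at -1, and sas-4 at 20.6, 13.004 and 13.4, so sas-4 was the higher of the pair at -5 and tbg-1 at -3. The kit reads the 3′ ends of transcripts, where counts need not scale with length. Without the division by length, 2 of the 8 genes, air-1 and sas-5, kept their place in the order.

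**Figure D1:**
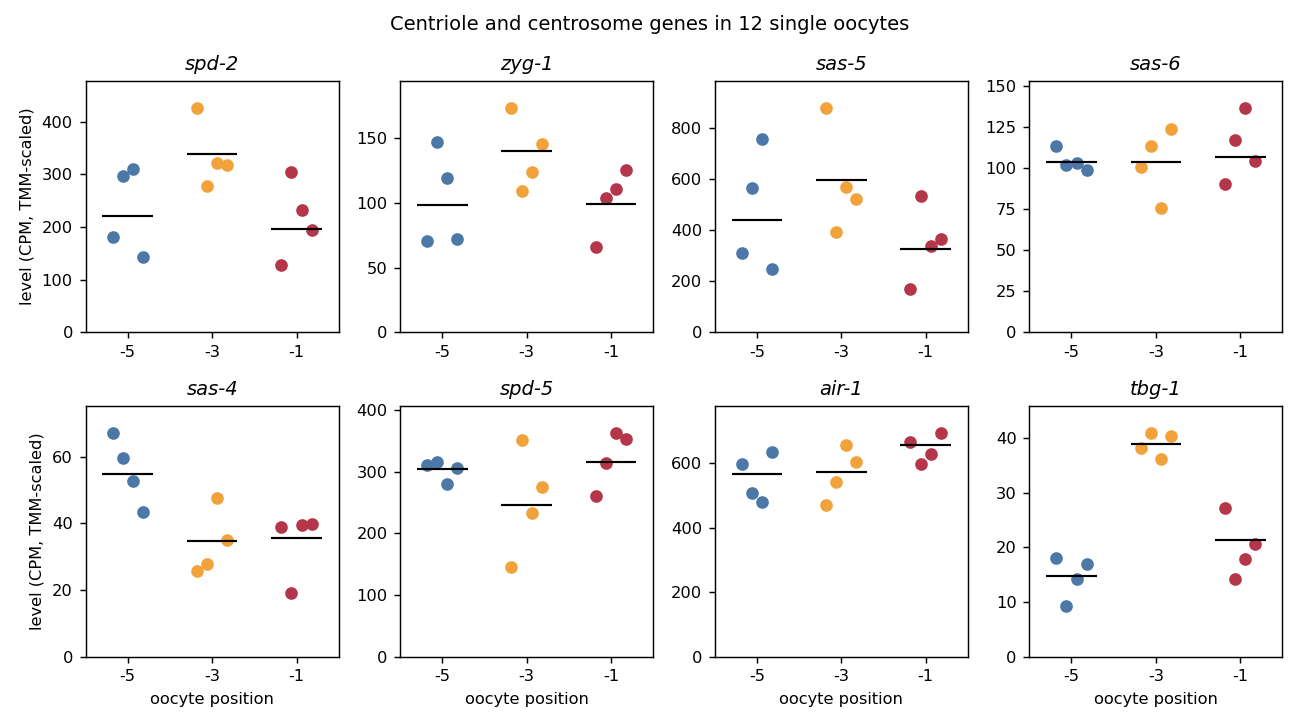
Level in CPM (TMM-scaled counts) of each of the 8 genes in every oocyte, by position, with 4 points per position and a bar at the pooled level. The 4 points of tbg-1 at -3 lie between 36.2 and 41.0 CPM, above all its points at -5 and -1, while sas-4 lies between 19.1 and 39.9 CPM at -1 and between 43.4 and 67.2 CPM at -5.

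Across the 8 genes no common direction with position was seen. Between oocytes -1 and -5 the median log2 ratio of the 8 genes was 0.02, against -0.01 over all 8718 genes, with 5 genes higher and 3 lower. That median lay between -0.0942 and 0.163 when each oocyte was left out in turn, so its sign turned on single oocytes. Apart by 1.5-fold were 0 genes higher and 1 lower (sas-4), where 11% of all genes were higher and 13.6% lower by this fold. Oocytes did not overlap for 1 gene, again sas-4, which was lower, against 2.64% of all genes higher and 2.89% lower. The number apart was 2 without oocyte -1 replicate 2, 0 without oocyte -5 replicate 2 and 3 without oocyte -5 replicate 4, and without the last of these oocytes air-1 also ceased to overlap.

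In the comparisons with the middle position more genes were apart, both of the 8 and of all genes, and the numbers of the 8 past 1.5-fold were near the share of all genes. Between oocytes -1 and -3 the median of the 8 genes was -0.23, against 0.02 over all genes, with 4 higher and 4 lower. Apart by 1.5-fold were 3 genes lower (spd-2, sas-5 and tbg-1) and 0 higher, where 16.6% of all genes were higher and 19.9% lower, and the oocytes of 1 gene, tbg-1, did not overlap, against 3.44% of all genes higher and 2.99% lower. Between oocytes -3 and -5 the median was 0.23, against -0.01 over all genes, with 6 higher and 2 lower. Apart were 2 genes higher (spd-2 and tbg-1) and 1 lower (sas-4), where 17% of all genes were higher and 17.2% lower, and the oocytes of tbg-1 did not overlap, against 2.86% higher and 3.15% lower. These comparisons share the -3 oocytes, so their opposite signs are not separate observations.

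Single oocytes moved these counts as well. Between -1 and -3 the number of genes apart was 1 without oocyte -1 replicate 1, and the number that did not overlap was 3 without oocyte -1 replicate 2 and 2 without oocyte -3 replicate 2. Between -3 and -5 the number apart was 1 without oocyte -3 replicate 1 or without oocyte -5 replicate 1 and 5 without oocyte -5 replicate 2. The number that did not overlap was then 3 without oocyte -3 replicate 2 and 2 without oocyte -3 replicate 3 or oocyte -5 replicate 4. For these smaller groups the share of all genes that do not overlap was not taken. Under every one of these omissions tbg-1 remained among the genes that did not overlap in both comparisons with -3.

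**Figure D2:**
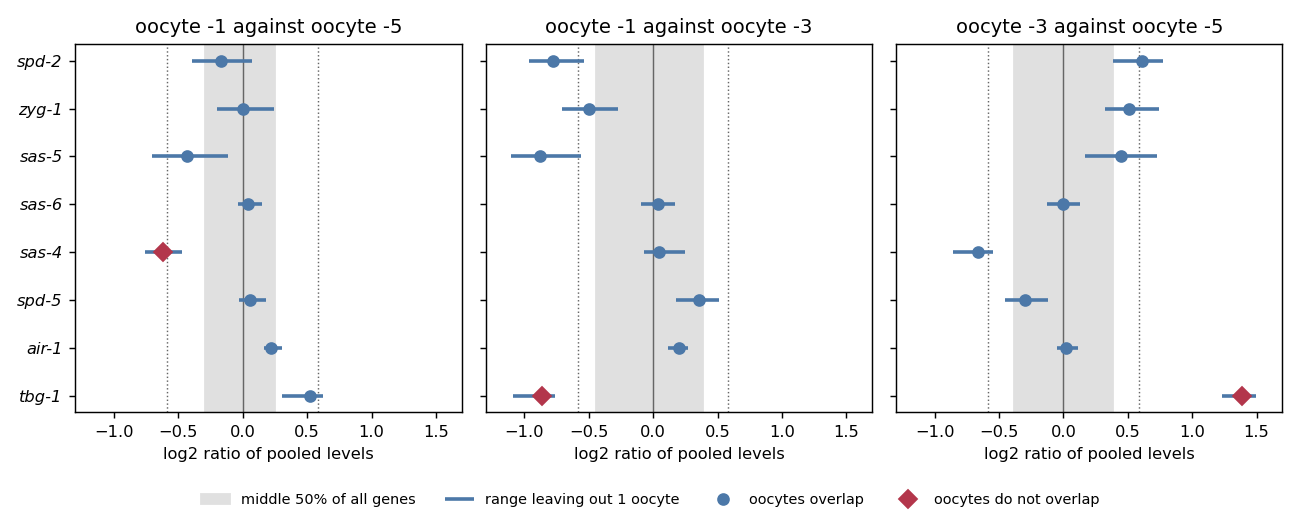
Log2 ratio of pooled levels (older over younger position) of the 8 genes in the 3 comparisons, with a line for the range when each oocyte is left out in turn. The grey band holds the middle 50% of all genes, dotted lines mark 1.5-fold, and red diamonds mark genes whose oocytes do not overlap, which are sas-4 between -1 and -5 and tbg-1 in both comparisons with -3.

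The clearest difference among the 8 genes was that of tbg-1 (WBGene00006540; III, 9626532 to 9629154, minus strand), the gamma-tubulin gene. It had 18.1, 9.33, 14.1 and 16.9 CPM in the -5 oocytes, 38.1, 41.0, 36.2 and 40.3 CPM in the -3 oocytes and 27.2, 14.3, 17.9 and 20.6 CPM in the -1 oocytes. Every -3 oocyte lay above every other oocyte, and the -3 oocytes lay close together, with a coefficient of variation of 5.65% against 26.7% at -5 and 27.3% at -1. The pooled level was 14.8 CPM (interval 13.8 to 15.9, from 788 counts) at -5, 38.8 CPM (37.3 to 40.4, from 2446 counts) at -3 and 21.3 CPM (20.2 to 22.5, from 1290 counts) at -1. Oocyte -3 over oocyte -5 gave a log2 ratio of 1.39, a 2.62-fold difference, and between 1.23 and 1.49 with each oocyte left out. With the sign kept, 95.3% of all genes had a lower log2 ratio, a share that includes every gene that fell. Oocyte -1 over oocyte -3 gave -0.87, between -1.09 and -0.76.

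The differences of tbg-1 were as large without the -3 oocytes that stood apart, when the ratios were 1.45 for -3 over -5 and -0.93 for -1 over -3. The authors' deposited table of the same contrasts gave log2 fold changes of 1.43 and -0.97 for tbg-1. The separation from -1 depended on the scaling, since in plain CPM oocyte -1 replicate 1 had 31.9 and oocyte -3 replicate 1 had 30.4, while the -3 and -5 oocytes still did not overlap. In plain CPM the -3 oocytes also lay less close together, at 30.4, 42.4, 36.1 and 38.4. A ratio of genes within an oocyte needs no scaling, and tbg-1 over spd-5, per kilobase, was 0.154, 0.0778, 0.133 and 0.145 in the -5 oocytes, 0.692, 0.307, 0.408 and 0.386 in the -3 oocytes and 0.274, 0.120, 0.130 and 0.154 in the -1 oocytes. By this ratio too every -3 oocyte lay above every other oocyte, although spd-5 was itself lowest in oocyte -3 replicate 1. The outcome depended on the denominator, since every -3 oocyte lay above all others for 4 of the 7 other genes (spd-5, sas-6, sas-4 and air-1) and not for spd-2, sas-5 and zyg-1, which were themselves highest at -3. Over spd-2, for example, the per-kilobase ratio ran from 0.162 to 0.267 in the -3 oocytes, against 0.0569 to 0.213 in the -5 oocytes, and reached 0.387 in the -1 oocytes.

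Between the ends of the series tbg-1 was less far apart. Oocyte -1 over oocyte -5 gave 0.52, a 1.44-fold difference, with overlapping oocytes. It passed 1.5-fold without oocyte -1 replicate 2 (0.62), oocyte -5 replicate 1 (0.63) or oocyte -5 replicate 4 (0.62). Of the exonic bases of tbg-1, 0.405% overlap hlh-11 on the opposite strand. Across the 12 oocytes its log2 level had a Pearson r of -0.64 with the summed sperm markers, which were themselves few counts, and of -0.05 with the TMM factor, and the part of either in the tbg-1 levels was not tested.

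The other genes of the gamma-tubulin complex, chosen for mention after their values were seen, gave other values. GIP-1 and GIP-2 bind gamma-tubulin, and MZT-1 is a small protein of the same complex. Pooled levels of gip-1 were 89.6 CPM at -5, 98.2 at -3 and 97.9 at -1, and those of gip-2 were 39.3, 46.3 and 45.3 CPM in the same order. The log2 ratios of -3 over -5 were 0.13 for gip-1 and 0.24 for gip-2, and neither was apart. Oocyte -3 replicate 1 had 30.2 CPM of gip-2 and the other -3 oocytes 49.7 to 52.8 CPM. Without it the ratio of gip-2 was 0.39. Without the -3 pair that stood apart the ratios were 0.00 for gip-1 and 0.37 for gip-2. The -3 oocytes of gip-2 that were left then lay above all its -5 oocytes. For mzt-1 the pooled levels were 74.1, 105 and 71.8 CPM, but oocyte -3 replicate 1 had 202 CPM and the other -3 oocytes 70.7 to 77.6 CPM. Without that oocyte the ratio of mzt-1 between -3 and -5 was -0.02 in place of 0.50. Whether the pattern of tbg-1 differs from that of its partners was not tested.

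The gene sas-4 (WBGene00004726; III, 8314349 to 8318588, minus strand), which is needed for the centriolar microtubule wall, was highest in the youngest oocytes. It had 67.2, 59.5, 52.8 and 43.4 CPM in the -5 oocytes, 25.7, 27.7, 47.6 and 35.1 CPM in the -3 oocytes and 38.9, 19.1, 39.4 and 39.9 CPM in the -1 oocytes. All -1 oocytes lay below all -5 oocytes, and -3 replicate 3 was the only -3 oocyte within the -5 range. The pooled level was 54.7 CPM (52.8 to 56.8, from 2905 counts) at -5, 34.6 CPM (33.2 to 36.1, from 2179 counts) at -3 and 35.7 CPM (34.2 to 37.2, from 2161 counts) at -1. The log2 ratio was -0.62 for -1 over -5, a 1.53-fold difference, and between -0.76 and -0.47 with each oocyte left out. In the authors' deposited table that log2 fold change was -0.72.

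That difference of sas-4 lay near the limit of 1.5-fold. It was below the limit without oocyte -1 replicate 2 (-0.47), oocyte -5 replicate 1 (-0.51) or oocyte -5 replicate 2 (-0.58) and in plain CPM (-0.54), while the -1 and -5 oocytes did not overlap in any of these. The ratio of -3 over -5 was -0.66, with overlapping oocytes, and below the limit without oocyte -3 replicate 1 (-0.55) or oocyte -5 replicate 1 (-0.56). The -3 and -5 oocytes of sas-4 did not overlap in plain CPM (-0.78), without oocyte -3 replicate 3 (-0.86), without oocyte -5 replicate 4 (-0.80) or without the -3 pair that stood apart (-0.76). Between -1 and -3 the ratio was 0.05, from -0.07 to 0.24 with each oocyte left out. No exonic base of sas-4 is shared with another gene.

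Among the genes of centriole assembly, spd-2, sas-5 and zyg-1 had highest pooled levels at -3 and wide spreads within each position. SAS-5 is the partner of SAS-6 in the central tube, and its gene (WBGene00009385; V, 11610708 to 11613054, plus strand) had 309, 565, 757 and 248 CPM in the -5 oocytes, 877, 392, 568 and 521 CPM in the -3 oocytes and 169, 533, 338 and 363 CPM in the -1 oocytes. The positions overlapped, and values over the 12 oocytes differed by up to 5.19-fold, the widest range of the 8 genes. Without oocyte -1 replicate 2 the -1 and -3 oocytes of sas-5 did not overlap. Pooled, sas-5 stood at 437 CPM (432 to 443) at -5, 596 CPM (590.2 to 602) at -3 and 324 CPM (319.9 to 329) at -1. Its log2 ratio was -0.88 for -1 over -3, or -0.56 without oocyte -1 replicate 1 and -0.54 without both -3 oocytes that stood apart, each under 1.5-fold.

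For sas-5 the other comparisons were smaller and moved with single oocytes. The ratio of -1 over -5 was -0.43, between -0.71 (without oocyte -5 replicate 4) and -0.11, and it passed 1.5-fold also without oocyte -1 replicate 2 (-0.65). The ratio of -3 over -5 was 0.45, and it passed 1.5-fold without oocyte -5 replicate 2 (0.59) or replicate 3 (0.73). The intervals of the pooled levels do not overlap, but they cover counting error and not the spread between oocytes.

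SPD-2 starts the assembly pathway and also sits in the pericentriolar material. Its gene (WBGene00004953; I, 8966985 to 8970158, minus strand) had 181, 296, 309 and 143 CPM in the -5 oocytes, 426, 277, 320.4 and 318 CPM in the -3 oocytes and 127, 303, 231 and 194 CPM in the -1 oocytes. The pooled level was 221 CPM (217 to 225) at -5, 338 CPM (333 to 342) at -3 and 197 CPM (193 to 200.4) at -1, with overlapping oocytes in each comparison. The -3 and -5 oocytes of spd-2 did not overlap in plain CPM or without oocyte -3 replicate 2. Its -1 and -3 oocytes did not overlap without oocyte -1 replicate 2 or without oocyte -3 replicate 2. The log2 ratio of -1 over -3 was -0.78, and under 1.5-fold without oocyte -1 replicate 1 (-0.54) or in plain CPM (-0.58), and that of -1 over -5 was -0.17, between -0.40 and 0.07. For -3 over -5 it was 0.61, just past 1.5-fold, and below it without oocyte -3 replicate 1 (0.48), oocyte -5 replicate 1 (0.53), oocyte -5 replicate 4 (0.38) or both -3 oocytes that stood apart (0.45), in plain CPM (0.49) and with the mean of the oocytes (0.53).

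ZYG-1 is the kinase that triggers centriole duplication. Its gene (WBGene00006988; II, 5649737 to 5654422, plus strand) had 70.2, 147, 119.6 and 72.1 CPM in the -5 oocytes, 173, 109, 124.2 and 146 CPM in the -3 oocytes and 65.8, 104, 111 and 125 CPM in the -1 oocytes. Pooled levels were 98.7 CPM (96.1 to 101) at -5, 140.1 CPM (137 to 143) at -3 and 99.0 CPM (96.5 to 101) at -1, and the oocytes of all positions overlapped. The log2 ratios were 0.00 for -1 over -5, -0.50 for -1 over -3 and 0.51 for -3 over -5, none of them past 1.5-fold. Without oocyte -1 replicate 4 the ratio of -1 over -3 was -0.71, and without oocyte -5 replicate 2 that of -3 over -5 was 0.74, both past it.

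These genes varied together from oocyte to oocyte. Across the 12 oocytes the log2 levels of spd-2 and sas-5 had a Pearson r of 0.95, those of spd-2 and zyg-1 of 0.87 and those of sas-5 and zyg-1 of 0.85. With the mean of each position removed the values were 0.97, 0.83 and 0.85 in the same order, so the agreement lay within positions. In plain CPM they were 0.91, 0.77 and 0.72, and over the 10 oocytes without the -3 pair that stood apart 0.93, 0.83 and 0.80. At -5, for example, replicates 2 and 3 were the higher oocytes and replicates 1 and 4 the lower for all of spd-2, sas-5 and zyg-1. For sas-5 and sas-6, whose proteins bind each other, r was -0.01, and it moved to -0.53 in plain CPM and 0.33 without the -3 pair, so it has no stable sign. For sas-5 and air-1 it was -0.71, with -0.83 in plain CPM and -0.73 without the -3 pair.

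Many genes shared this pattern, and it moved with a property of the libraries. Of 5184 genes that averaged 20 CPM or more, 9.01% followed sas-5 with an r of at least 0.8, 8.53% followed spd-2 and 7.25% followed zyg-1, so spd-2 was the gene ranked 63 among those that follow sas-5. The points share library, depth and composition. The TMM factor of the library had an r of -0.96 with sas-5, -0.92 with spd-2 and -0.85 with zyg-1, and of 0.76 with air-1. In plain CPM, which does not use the factor, these were -0.93, -0.84, -0.70 and 0.92. The number of genes detected had an r of -0.68 with sas-5, -0.75 with spd-2 and -0.56 with zyg-1. The summed sheath and spermatheca markers, mostly the gene fln-1, had -0.57, -0.69 and -0.63. The part of these library measures in the shared pattern was not tested.

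**Figure D3:**
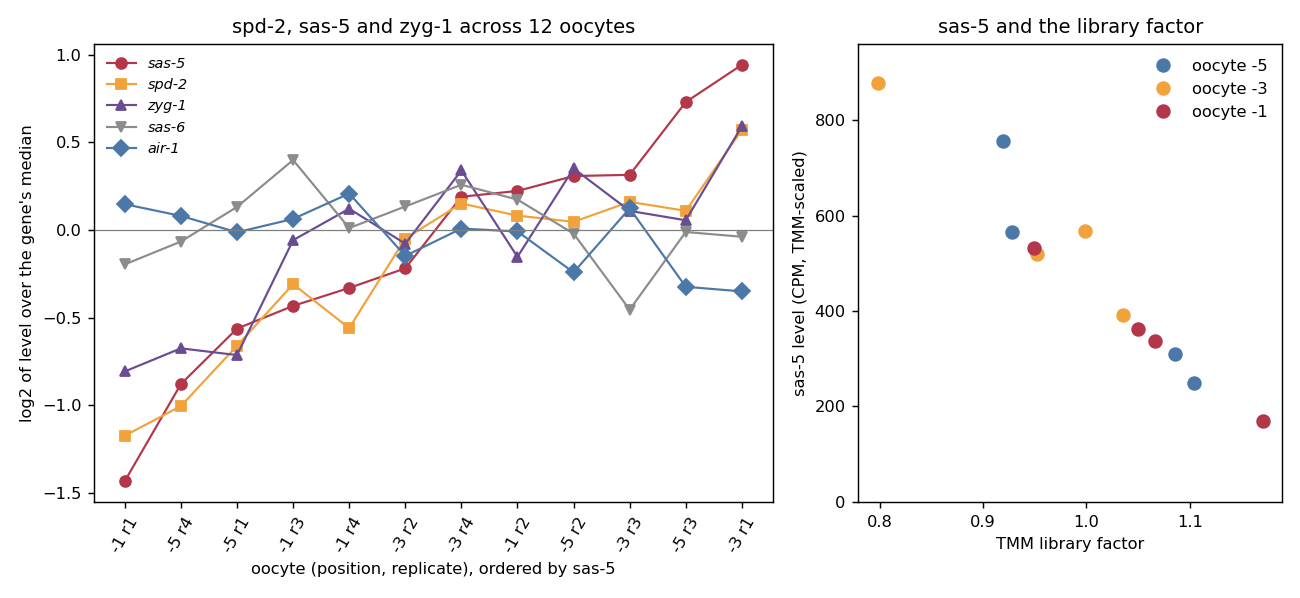
Left, log2 of the level over the gene's own median for sas-5, spd-2, zyg-1, sas-6 and air-1 in the 12 oocytes ordered by sas-5. Right, the sas-5 level in CPM of each oocyte against the TMM factor of its library, from -1 replicate 1 at 169 CPM and a factor of 1.17 to -3 replicate 1 at 877 CPM and a factor of 0.798; spd-2 and zyg-1 run with sas-5, while air-1 runs against it.

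Ratios within an oocyte, which no scaling touches, showed the same spread. Per kilobase, sas-5 over sas-6 was 2.22, 4.51, 6.01 and 2.05 in the -5 oocytes, 7.09, 2.81, 6.13 and 3.43 in the -3 oocytes and 1.53, 3.72, 2.02 and 2.84 in the -1 oocytes. The transcript of sas-5 thus exceeded that of its partner in every oocyte, on a scale per length, by amounts that overlapped between positions. For zyg-1 over sas-6 the ratio was 0.409, 0.951, 0.770 and 0.482 at -5, 1.14, 0.634, 1.09 and 0.778 at -3 and 0.481, 0.586, 0.535 and 0.793 at -1.

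The gene sas-6 (WBGene00012888; IV, 13786945 to 13788727, minus strand), for the core protein of the central tube, was among the steadiest. It had 113, 102, 103 and 98.9 CPM in the -5 oocytes, 101, 114, 75.5 and 123.8 CPM in the -3 oocytes and 90.3, 117, 136 and 104 CPM in the -1 oocytes. Pooled levels were 104 CPM (101 to 107) at -5, 104 CPM (101 to 106) at -3 and 107 CPM (104 to 109) at -1, and the 3 log2 ratios lay between 0.00 and 0.04. Without the -3 pair that stood apart the ratio of -3 over -5 was 0.21, and the -3 oocytes left then lay above all -5 oocytes. The lower of them had 113.6 CPM, against 113.4 CPM in oocyte -5 replicate 1. Its coefficient of variation over the 12 oocytes was 14.8%, lower than that of most genes of like level, since 6.25% of 2622 genes within a factor of 2 in mean level had a lower value. Of its exonic bases 1.09% overlap icap-1 on the same strand, and reads there could be lost.

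AIR-1, the Aurora A kinase, acts at centrosomes and on spindle microtubules. Its gene (WBGene00000098; V, 8221410 to 8223587, plus strand) had 596, 509, 481 and 636 CPM in the -5 oocytes, 472, 543, 655 and 605 CPM in the -3 oocytes and 666, 598, 629 and 695 CPM in the -1 oocytes. The pooled level was 566 CPM (559.6 to 572) at -5, 573 CPM (568 to 579) at -3 and 658 CPM (651 to 664) at -1. The log2 ratios were 0.22 for -1 over -5, between 0.17 and 0.31 with each oocyte left out, and 0.20 for -1 over -3, between 0.12 and 0.27, with overlapping oocytes. Its values over the 12 oocytes differed by at most 1.47-fold, and its coefficient of variation of 12.5% was the lowest of the 8 genes, with 5.65% of 531 genes of like level lower.

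SPD-5 is the scaffold protein of the pericentriolar material. Its gene (WBGene00004955; I, 5171285 to 5176664, minus strand) had 311, 315, 279.9 and 305 CPM in the -5 oocytes, 145, 351, 233 and 275 CPM in the -3 oocytes and 261, 313, 363 and 353 CPM in the -1 oocytes. The -5 oocytes lay close together, with a coefficient of variation of 5.24%, against 34.2% at -3, where replicate 1 was the lowest of all. Pooled levels were 304 CPM (299 to 309) at -5, 247 CPM (243 to 251) at -3 and 316 CPM (312 to 321) at -1. The log2 ratios were 0.06 for -1 over -5, 0.36 for -1 over -3 and -0.30 for -3 over -5, none past 1.5-fold in any setting.

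The scaffold partners spd-2 and spd-5 did not keep a fixed ratio. Their per-kilobase ratio, spd-2 over spd-5, was 0.850, 1.37, 1.61 and 0.682 in the -5 oocytes, 4.28, 1.15, 2.00 and 1.69 in the -3 oocytes and 0.710, 1.41, 0.928 and 0.803 in the -1 oocytes. All -3 oocytes had more spd-2 than spd-5 per kilobase, and the -5 and -1 oocytes lay on both sides of 1. Which side of 1 an oocyte lay on depended on the division by length, which counts of 3′ ends need not follow. In CPM spd-2 was below spd-5 in every -1 oocyte and in oocyte -3 replicate 2 (277 against 351). It was also below in replicates 1, 2 and 4 of oocyte -5, with 296 against 315 CPM in replicate 2. The correlation of their log2 levels was -0.44 over the 12 oocytes and 0.14 over the 10 without the -3 pair that stood apart.

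For most of the 8 genes the spread between oocytes was many times the counting error. The coefficient of variation over the 12 oocytes was 46.8% for tbg-1, 44.1% for sas-5, 33.8% for sas-4, 33.4% for spd-2, 29.0% for zyg-1 and 20.7% for spd-5, where counting alone gives 6.23% for tbg-1, 4.48% for sas-4 and at most 2.63% for the other 6. Against genes of like level, 93.3% of 699 genes had a lower value than sas-5, 79.3% of 1472 a lower value than spd-2 and 78.7% of 1943 a lower value than tbg-1.

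The genes closest in pattern to each of the 8 over the 12 oocytes were taken by the highest Pearson r of log2(CPM + 1). For sas-5 they were skpt-1 (0.988) and apc-10 (0.987), and for spd-2 Y4C6A.3 (0.985) and nxt-1 (0.981). For zyg-1 they were dli-1 (0.963) and sws-1 (0.960), for spd-5 ubr-4 (0.967) and him-1 (0.938) and for air-1 sup-46 (0.942) and rtel-1 (0.930). Lower values were reached by the nearest genes of tbg-1, dhs-22 (0.910) and W02F12.4 (0.870), of sas-6, tpxl-1 (0.893) and ile-1 (0.887), and of sas-4, mog-7 (0.838) and taco-1 (0.821). Of the 5184 genes, 0.367% followed tbg-1 with an r of at least 0.8, 0.174% followed sas-6 and 0.0965% followed sas-4. These shares were smaller than those of sas-5, spd-2 and zyg-1. The share that follows other genes of like level and spread was not taken. The nearest gene of tbg-1, dhs-22, had pooled levels of 36.3 CPM at -5, 77.4 at -3 and 48.4 at -1. Its likeness to tbg-1 follows from how it was chosen.

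Other components of centrioles and the pericentriolar material were measured for 13 of 13 genes of a list. Their median log2 ratio was -0.05 for -1 over -5, with 6 higher and 7 lower and 1 lower past 1.5-fold, beside 13.6% of all genes, and its sign turned in plain CPM (0.03) and without single oocytes (up to 0.14). That gene was sas-7, whose protein acts with SPD-2 at the centriole, with 36.8, 25.1, 22.6 and 22.1 CPM in the -5 oocytes, 12.5, 30.2, 26.9 and 14.6 CPM in the -3 oocytes and 13.2, 18.7, 14.5 and 13.1 CPM in the -1 oocytes. All its -1 oocytes lay below all its -5 oocytes, and the log2 ratio was -0.88, or -0.69 without oocyte -5 replicate 1. Next in size were tac-1 (-0.30), a partner of the microtubule factor ZYG-9, and rsa-2 (0.30), which targets a phosphatase to centrosomes. Pooled levels of tac-1 were 297 CPM at -5, 373 at -3 and 242 at -1, and those of rsa-2 were 155, 203 and 190.5 CPM. The mitotic kinase gene plk-1, mentioned for its role beside SPD-5, stood at 551 CPM at -5, 481 at -3 and 602 at -1.

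In the comparisons with -3, where more of all genes were apart as well, the median was -0.09 for -1 over -3, with 3 higher and 10 lower. Past 1.5-fold were 4 of the 13, all lower, beside 19.9% of all genes lower and 16.6% higher. Without the -3 pair that stood apart 2 of the 13 were, both lower, beside 15.8% of all genes lower and 17.1% higher. For -3 over -5 the median was 0.24, with 10 higher, 3 lower and 2 past 1.5-fold, both higher, beside 17% of all genes higher and 17.2% lower, or 4 higher without oocyte -3 replicate 2 or replicate 3. In plain CPM the median of -1 over -3 was 0.10, with 7 higher and 2 past 1.5-fold, so that direction turned on the scaling. The genes past 1.5-fold, chosen for mention after their values were seen, included rsa-1, which codes for a phosphatase subunit at centrosomes, and sas-1, which acts in centriole stability. Oocytes of rsa-1 had 358, 663, 883 and 277 CPM at -5, 1366, 649, 762 and 903 CPM at -3 and 261, 641, 512 and 539 CPM at -1. Its -1 oocytes lay below its -3 oocytes, with a log2 ratio of -1.02, or -0.81 without the -3 pair that stood apart. For sas-1 the pooled levels were 7.18 CPM at -5, 16.9 at -3 and 6.41 at -1, with a ratio of -1.40 for -1 over -3, or -0.93 without that pair.

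Regulators of centriole duplication and number, 18 of 18 measured, differed little. None was past 1.5-fold in any of the 3 comparisons, where 24.5% to 36.5% of all genes were past it in either direction, and without single oocytes, or in plain CPM, at most 2 of the 18 were. These regulators averaged 53.5 to 607 CPM, while that share covers all genes kept, those of low level included. It was not matched for level, so whether they differ less than genes of like level was not tested. The median log2 ratio was -0.10 for -1 over -5, with 7 higher and 11 lower. The largest ratios were those of szy-2 (-0.48), a phosphatase regulator gene, lin-23 (-0.40), for a part of a ubiquitin ligase, and fzr-1 (-0.34), for a coactivator of the anaphase-promoting complex that limits SAS-5. For -1 over -3 the median was 0.13, with 14 higher, and for -3 over -5 it was -0.17, with 3 higher. Without both -3 oocytes that stood apart these medians were -0.00 and -0.09, each with 8 higher and 10 lower.

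Genes that attach centrosomes to the nucleus or regulate their microtubules, 7 of 7 measured, mostly had their lowest pooled levels at -3. For -1 over -5 the median was 0.03, with 4 higher and none past 1.5-fold. It was -0.03 without oocyte -5 replicate 2, while 7 of 7 were higher in plain CPM (0.11) and without oocyte -5 replicate 4 (0.16), and the largest ratios were those of sun-1 (0.38) and its partner zyg-12 (0.09), which link the nuclear envelope to centrosomes, and of the doublecortin kinase gene zyg-8 (0.21). For -1 over -3 the median was 0.61, with 6 higher and 4 of the 7 higher past 1.5-fold, beside 16.6% of all genes. For -3 over -5 it was -0.51, with 6 lower and 2 of the 7 lower past it, beside 17.2% of all genes. The dynein heavy chain gene dhc-1, mentioned after its values were seen, had 382 to 449 CPM at -1, against 87.6 and 119.1 CPM in the -3 oocytes that stood apart and 330.3 and 352 CPM in the other -3 oocytes. Without oocyte -3 replicate 1 the number of genes past 1.5-fold between -1 and -3 was 0, and without replicate 3 it was 2. Between -3 and -5 that number was 1 without oocyte -3 replicate 1 and 4 without replicate 4. Without both -3 oocytes that stood apart the medians were 0.21 and -0.18 with none past it.

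Genes of the meiotic spindle, which forms without centrosomes in this oocyte, were measured for 10 of 10. Their median log2 ratio was -0.24 for -1 over -5, with 3 higher, 7 lower and 1 lower past 1.5-fold, klp-3, beside 13.6% of all genes. It stood at 5.04 CPM at -1 and 8.61 CPM at -5. No gene was lower by that fold without any one of oocyte -1 replicates 1 and 4 and oocyte -5 replicates 1 and 4. Above 10 CPM the largest ratios were those of mesp-1 (-0.41), for a partner of the kinesin KLP-18, klp-18 itself (0.39) and klp-15 (-0.36), a kinesin gene whose near-identical copy klp-16 makes its count uncertain. All -1 oocytes of mesp-1 lay below all -5 oocytes, with pooled levels of 167 CPM at -5, 141 at -3 and 125 at -1. The medians of the comparisons with -3 were -0.06 for -1 over -3, which was 0.14 in plain CPM and 0.04 without oocyte -1 replicate 4, and -0.15 for -3 over -5. For -1 over -3, 2 of the 10 were higher past 1.5-fold (klp-18, 0.89, and lin-5, 0.70), beside 16.6% of all genes. Lower past it was 1 (klp-3, -1.12), beside 19.9%. Without the -3 pair that stood apart 0 were higher and 1 lower, beside 17.1% and 15.8% of all genes. For -3 over -5 none was past it, beside 17% of all genes higher and 17.2% lower.

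**Figure D4:**
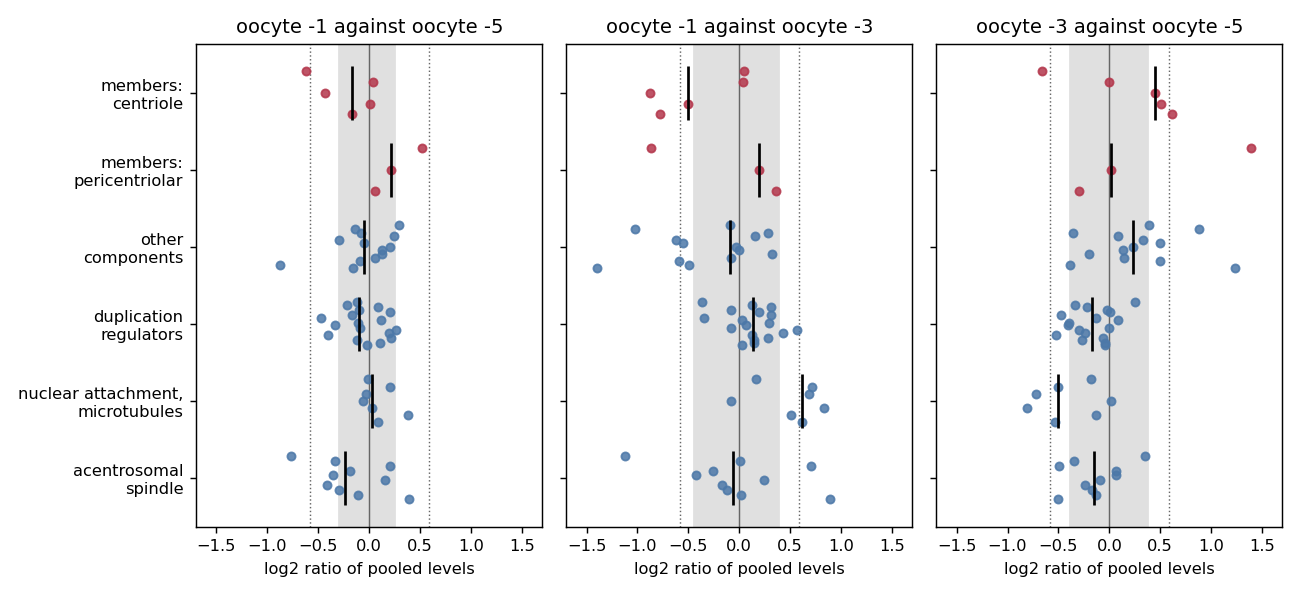
Log2 ratios of pooled levels (older over younger position) of single genes in 6 lists of centrosome and spindle genes, for the 3 comparisons, with a black bar at the median of each list. The list of attachment and microtubule genes has its median at 0.61 for -1 over -3 and at -0.51 for -3 over -5, and the regulators of duplication have no gene past 1.5-fold in any comparison.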

How the data were processed

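The deposited table holds raw counts, whole reads per gene in 12 libraries of 1 oocyte each, not normalized by the authors. Libraries were made with the SMART-seq v4 3′ DE kit, per the labels' protocols, which counts no molecules. The submitters' processing notes name cutadapt 1.18, FastQC 0.11.5, the aligner STAR and featureCounts 1.5.3, while the header of the table gives featureCounts 1.6.4. Its command used WormBase WS271 genes and set no option for strand, overlaps or multi-mapping reads, so reads antisense to a gene cannot be told apart. Coordinates come from the table itself, whose genome build is not given in sources used here. Also deposited by the authors were log2 fold changes from DESeq2 1.32.0, per the submitters' processing notes, and only those were used from their tables. Their direction was checked by sign, which matched that of the ratios computed here for 92.8% to 95.7% of the shared genes in each comparison.

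Genes were kept with edgeR's default filter (edgeR 4.0.16, R 4.3.3), and libraries scaled with TMM. Ratios of pooled levels used a floor of 3 counts over the group. A check on counts simulated with the same scaled library sizes covered their arithmetic only. It could not check the scaling or variation that genes of a library share. DESeq2 1.42.0 gave alternative size factors. Other steps used Python 3.11.15, pandas 2.3.3, numpy 2.4.6 and scipy 1.17.1. Symbols were found for 44018 of 46903 identifiers, and for 102 of 103 list genes (the sperm gene trp-3 was not matched). Named in each list were the 3 genes of largest -1 over -5 ratio with a mean of at least 10 CPM, and, for each of the 8 genes, the 2 most like in pattern above 20 CPM. No test between positions was made, since the labels tie no oocyte to an animal. The 8 genes and the lists were chosen with earlier results of these data known.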

Additional observations from a re-analysis of the deposited data

Results flagged for a closer look

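In oocyte -1 replicate 2 sas-4 stood at 19.1 CPM, while the other -1 oocytes lay between 38.9 and 39.9 CPM. The gap to the nearest of them was 0.951 of the range of the 4 oocytes, past the limit of Dixon's rule for 4 values, which serves here only to mark oocytes and not as a test of a condition. It was the 1 group marked of 24 groups of 4 oocytes looked at. The limit marks about 1 in 20 groups by chance when groups are independent, but these 24 share 12 libraries. The part of chance in this mark was not tested. Without this oocyte the log2 ratio of sas-4 between -1 and -5 was -0.47 in place of -0.62.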

How the results depend on the processing

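No paired analysis was possible because no test was made and the labels pair no oocytes across positions. Of 88 ratios of the 8 genes under other scalings, an unweighted mean or without the -3 pair that stood apart, 87 moved by less than the spread between oocytes, and air-1 between -1 and -3 was 0.40 in plain CPM. Plain CPM shifted the median of all genes to 0.21 for -1 over -3 and -0.13 for -3 over -5, and ratios of the 8 genes shift by like amounts. In plain CPM 1 gene was higher (tbg-1, 0.60) and 0 lower by 1.5-fold for -1 over -5, 0 and 2 for -1 over -3, and 1 and 1 for -3 over -5. Oocytes then did not overlap for 0 genes between -1 and -3 and for 3 between -3 and -5. Without the -3 pair that stood apart they did not overlap also for 3 between -3 and -5. In these settings the share of all genes that do not overlap was not taken, and smaller groups fail to overlap more easily. The order per kilobase kept 2 of 8 places without the division by length. With each oocyte left out, medians ran from -0.0942 to 0.163 for -1 over -5, -0.373 to -0.147 for -1 over -3 and 0.140 to 0.300 for -3 over -5. Genes past 1.5-fold then numbered 0 to 3, 1 to 4 and 1 to 5, and genes that did not overlap 1 to 2, 1 to 3 and 1 to 3. With no filter on low counts, 37.3% of all genes were past 1.5-fold between -1 and -5. With 4 oocytes a position from unnamed animals, the spread between animals is unknown.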
